A study of Homo sapiens with 28 samples.

Results

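The regions described here are H3K36me2 sites that were detected in all 4 H3K36me2 peak lists of U2OS cells, an osteosarcoma line. They are the peaks of replicate 1 without UV that were narrower than 5000 bp and overlapped, by at least 1 bp, a peak in each of the other 3 lists. They were 197202 of the 500000 peaks in that list (39.4%) and of the 495867 peaks under the width limit (39.8%), and they are called shared sites below. All 4 lists were made from wild-type cells. Of these, 2 are replicates that received no UV, and 2 are replicates harvested 3 h after irradiation with UV-C at 20 J m-2. A further 6 peak lists came from ASH1L-/- U2OS cells that expressed the Flag-tagged carboxy-terminal domain (CTD) of the methyltransferase ASH1L from a plasmid, 3 replicates without UV and 3 at 3 h after the same dose. The ASH1L-/- cells were isolated as colonies after CRISPR deletion, and the CTD was expressed from the CMV promoter of its vector, which is not the promoter of the native gene. The H3K36me2 controls were input DNA, and the CTD controls were ASH1L-/- cells with empty vector. All lists give positions in the hg38 build, and each list holds 500000 peaks in order of -log10 p. They carry no read depth, so the precision rests on the spread between lists.

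H3K36me2 is the dimethyl form of lysine 36 on histone H3. It is written by NSD1, NSD2, NSD3 and ASH1L, erased by KDM2A and KDM2B, and read by proteins with a PWWP domain such as DNMT3A. In mammalian cells it covers long intergenic and genic stretches, whereas the trimethyl form, written by SETD2, marks the bodies of transcribed genes. ChIP-seq on bulk cells averages over the population, so more cells carrying a mark and more mark per cell cannot be told apart. Detection, width and fold enrichment in the 4 lists chose the sites, or come from the same lists, and are given below as a description without a test.

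The strongest shared sites are shown by their sequence to show their base composition and the words that some of them hold. Each line gives 200 bp of the hg38 plus strand around the centre of a site, for 3 of the strongest sites, in lower case. Capitals mark words of 12 bases that recurred among 300 of the strongest sites and are described further on.
PIEZO2 intron, chr18:10916209-10916408: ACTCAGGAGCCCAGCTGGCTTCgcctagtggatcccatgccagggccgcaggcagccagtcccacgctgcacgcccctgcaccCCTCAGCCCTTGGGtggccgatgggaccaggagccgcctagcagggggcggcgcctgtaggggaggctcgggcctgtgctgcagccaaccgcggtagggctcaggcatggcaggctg
Intergenic, nearest start CDH9, chr5:27590573-27590772: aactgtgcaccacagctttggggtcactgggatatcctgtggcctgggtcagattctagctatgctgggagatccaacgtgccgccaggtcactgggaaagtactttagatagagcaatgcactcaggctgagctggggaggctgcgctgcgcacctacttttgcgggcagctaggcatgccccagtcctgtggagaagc
Intergenic, nearest start BBS10, chr12:76232062-76232261: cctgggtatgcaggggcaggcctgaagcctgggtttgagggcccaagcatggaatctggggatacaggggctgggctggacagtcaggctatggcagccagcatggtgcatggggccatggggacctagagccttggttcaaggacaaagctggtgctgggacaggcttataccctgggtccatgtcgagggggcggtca
These 3 windows held between 2 and 11 CpG dinucleotides, and their GC content lay between 57.5% and 71.5%. The PIEZO2 window held 14 of the recurring words, whereas the other 2 held none. The window of a further site, at the start of CDC14C, overlapped an exon by 79 bp and is not shown.

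Ranked by the lowest of its 4 fold enrichments, the strongest shared site was chr8:97542111-97543301, which lay outside any gene, 101.5 kb from the start of MTDH. Its fold enrichment over input was 4.21 and 4.61 without UV against 4.35 and 4.30 at 3 h. The 3 h values lay within the range of the values without UV. The next was chr18:10915740-10916877, in an intron of PIEZO2, which codes for a mechanosensitive ion channel. There the values were 5.15 and 4.75 without UV against 3.52 and 3.79 at 3 h, so both 3 h lists lay below both lists without UV, by a log2 ratio of -0.44. The 5.15 was the highest fold enrichment of the list. The site chr5:27589757-27591588, far from any protein-coding start (469.5 kb to CDH9, a cadherin), had 3.91 and 3.51 without UV against 3.75 and 3.65 at 3 h. At chr12:76231786-76232538 the values were 3.47, 4.12, 3.50 and 4.01 in the same order. Both of these sites had overlapping values in the 2 conditions. The site at the start of CDC14C, chr7:48924313-48924739, had 3.72 and 3.72 without UV against 3.24 and 3.86 at 3 h. These values also overlapped between conditions. Only 27 shared sites had a fold enrichment of 3 or more in all 4 lists, and 17961 (9.11%) had 2 or more in all.

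Most shared sites were much weaker than these. Their median fold enrichment was 1.97 and 1.94 in the lists without UV and 1.94 and 1.89 in the 3 h lists, against 1.88, 1.85, 1.89 and 1.82 over the whole lists. The middle 80% of sites lay between 1.72 and 2.39 in replicate 1 without UV and between 1.64 and 2.27 in replicate 2 at 3 h. The sites were wider than the peaks that were not shared. Their median width was 1080 bp (quartiles 623 and 1759 bp) against 442 bp for the 298665 other peaks under the width limit. In the other lists the peak with the largest overlap had a median width of 1061, 1006 and 1032 bp. Between 58.1% and 61.3% of the sites reached a -log10 p of 2 in a given list, but 45961 (23.3%) did so in all 4. A -log10 q of 1.3 was reached in all 4 lists at 4436 sites (2.25%), so few shared sites were called in every list after correction for multiple testing.

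**Figure D1:**
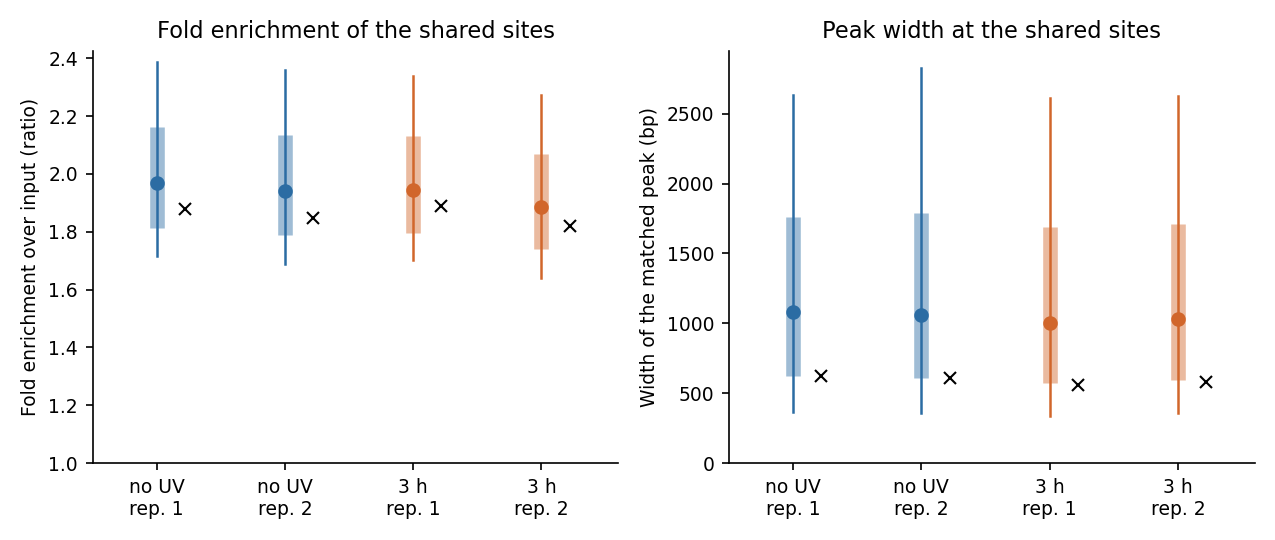
Fold enrichment over input (left) and width of the matched peak in bp (right) of the 197202 shared sites in each of the 4 H3K36me2 lists. Points are medians, thick bars run between quartiles, thin lines between the 10th and 90th percentiles, and crosses are the medians of all 500000 peaks of a list. Medians of the shared sites lie above those of their lists in every panel, and the 4 lists differ little from each other (1.89 to 1.97 in fold enrichment).

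The overlaps were often partial. At 186769 sites (94.7%) at least 1 base lay under a peak in all 4 lists, and 10433 sites had no such base, since the other lists touched different parts of the peak. The stretch common to all 4 lists had a median of 409 bp per site and added up to 119.2 Mbp, against 260.6 Mbp for the sites themselves (8.95% of the 2911 Mbp of ungapped sequence). At least 50% of the site was overlapped in each of the other lists at 109518 sites. The other lists covered between 13.8% and 15.2% of the sequence, and each overlapped between 60.1% and 64% of the peaks under the width limit.

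Fold enrichment agreed only loosely from list to list. Over the 197202 sites Pearson's r was 0.43 between the 2 lists without UV and 0.43 between the 2 lists at 3 h, and between 0.24 and 0.30 across conditions (Spearman's rho 0.37, 0.42 and 0.21 to 0.26). Sites are not independent replicates, and the 2 lists of a condition share their input, which the authors pooled. The width limit cut through a continuum. The widest shared sites, chr6:3798307-3803305, chr8:41191180-41196178 and chr1:171428346-171433343, were 4999, 4999 and 4998 bp wide with fold enrichments of 2.42, 2.13 and 2.18 in replicate 1 without UV. The narrowest peaks excluded by it, on chromosomes 4, 8 and 9, were 5000 bp wide with 2.19, 1.90 and 2.03. There were 4126 peaks of 5000 bp or more that met the overlaps.

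Whether a peak was shared went with its width, its rank and its base composition. Among peaks narrower than 250 bp 9.50% were shared, and this share was 21.6% from 250 up to 500 bp, 37.4% up to 1000 bp, 66.3% up to 2000 bp and 91.6% from 2000 bp on. A wider peak has more bases that another list can touch, but the part of this in the trend was not tested. Of the 100000 peaks with the highest -log10 p in the list, 66.4% of those under the width limit were shared, and of the last 100000 20.1% were. In the 4 classes bounded by the quartiles of fold enrichment, from low to high, the share was 24.2%, 32.3%, 43.3% and 59.3%. GC content was measured in 500 bp around the centre, a window of the same length for every peak. At peaks narrower than 500 bp it takes in flanking sequence, so width still enters the value. The share was 25.1% at a GC content of 30 to 35%, rose to 47.3% at 50 to 55% and was 36.8% at 60% or more. The same rise and fall was seen within each width class from 250 to 2000 bp. From 500 to 1000 bp, for instance, the share was 18.3% at a GC content of 30 to 35%, 43.5% at 50 to 55% and 31.1% at 60% or more. At 2000 bp or more it lay at 93.0% and 90.6% in the first 2 of these bins and at 82.2% in the last.

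**Figure D2:**
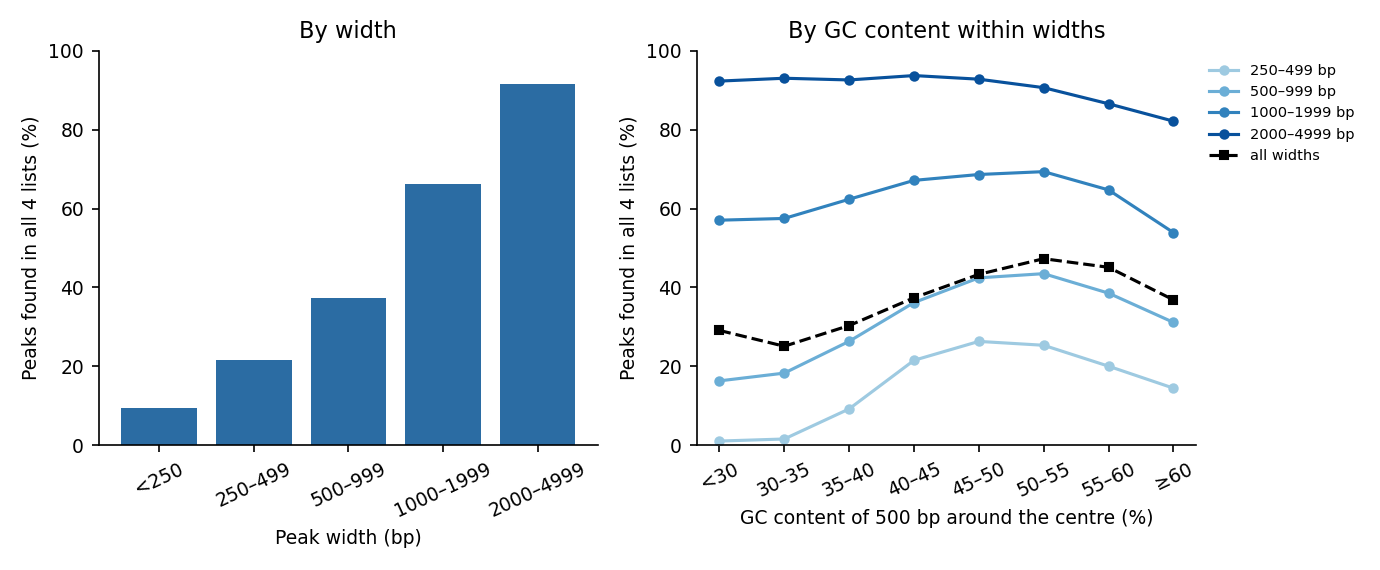
Share of peaks under 5000 bp of replicate 1 without UV that were found in all 4 lists, in percent, by peak width (left) and by GC content of 500 bp around the centre (right), the latter within width classes (solid lines) and over all widths (dashed). The share climbs from 9.50% to 91.6% with width, and within widths from 250 to 2000 bp it peaks between 45% and 55% GC content.

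The median GC content of the 500 bp windows was 46.2% at shared sites and 44.8% at the other peaks under the width limit. Over whole peaks the medians were 46.7% in both, and the quartiles were closer together at the shared sites (43.5% and 50.4%) than at the others (42.3% and 51.1%). The other peaks had a median width of 442 bp, so many of their 500 bp windows reached past the peak. UV-C joins neighbouring pyrimidines in DNA, so the number of such pairs bears on where lesions can form. In the 500 bp windows, counted on either strand, shared sites had 56.8 adjacent pyrimidine pairs per 100 bp (SD 3.25 between sites) and the other peaks 56.5 (SD 3.32). Pairs of thymines, on either strand, went the other way, with 15.8 per 100 bp (SD 4.30) at shared sites and 16.7 (SD 4.46) at the other peaks. Of the peaks with 9 to 12 such pairs per 100 bp 48.0% were shared, and of those with 24 or more 28.6% were.

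The words marked in the PIEZO2 sequence above came from a search of 300 of the strongest sites. Every word of 12 bases that was found, on either strand, in the 500 bp around the centre of at least 5% of them was compared with all peaks under the width limit. There were 161 such words, and 75 of them were at least 20 times as frequent in the searched sites as in all these peaks. The word with the highest ratio, AGATTAGCTAGA, was held by 16 of these 300 sites, by 257 of all shared sites (0.130%) and by 38 of the other peaks (0.0127%). The word CCCAAGGGCTGA, which is in the PIEZO2 window on the minus strand, was held by 23 of the 300, by 564 shared sites (0.286%) and by 202 other peaks (0.0676%). Of the peaks with this word 73.6% were shared, against 39.8% of all peaks under the width limit. It occurs 2219 times in the 23 chromosomes, and 46.1% of these copies lay inside a shared site, although shared sites cover 8.95% of the sequence. All peaks of replicate 1 without UV together held 59.3% of the copies and cover 15.7% of the sequence, so the copies were not concentrated in shared sites alone. By contrast the commonest word of the searched sites, GCTGGGATTACA, which is part of the Alu repeat, was held by 18% of shared sites and 19.9% of the other peaks. It occurs 721768 times, and 14.2% of the copies lay inside a shared site.

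Windows with 2 or more of the 75 words made up 16% of the 100 strongest shared sites. They were 10.5% of ranks 101 to 300, 6.14% of ranks 301 to 1000, 2.56% of ranks 1001 to 10000 and 0.556% of the weakest 97202. In all, 1618 shared sites (0.820%) on all 23 chromosomes and 986 other peaks (0.330%) held 2 or more, so 62.1% of such peaks were shared. Windows with such words were a minority even among the strongest sites. At the 1618 sites the median fold enrichment was 2.15 and 2.19 without UV against 1.99 and 2.0 at 3 h. Both 3 h lists lay below both lists without UV at 685 of them (42.3%) and above at 165 (10.2%), where 27.0% and 15.7% of all peaks found in all 4 lists did so. Among all shared sites with a GC content of 55 to 60% both lay below at 46.8%. The GC content of the 1618 sites was not measured as a group, so the comparison is not matched and the part of GC content was not tested. These words were chosen from the strongest shared sites, so their frequency there follows from the choice. Their shares among all shared sites, which include the searched ones, are a description for the same reason. Reads of low mapping quality were removed by the authors, and the part that near-identical copies play in these values was not tested.

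Fold enrichment at the shared sites differed little between 3 h and no UV. The median log2 ratio of the mean of the 2 lists at 3 h over that of the 2 lists without UV was -0.03 (quartiles -0.15 and 0.08), and at 83.5% of sites it was within 0.25 of 0. The SD of this ratio over the sites was 0.18, while the SD of the log2 ratio of the 2 replicates was 0.21 without UV and 0.20 at 3 h. Both 3 h values lay above both values without UV at 31357 sites (15.9%), where 15.7% of all 201328 peaks found in all 4 lists did so. Both lay below at 51986 sites (26.4%), where 27.0% of all such peaks did. Those peaks are the shared sites and the 4126 wider ones, so the shares are close by construction. With each list divided by its own median, 17.2% lay above and 25.4% below, against 17% and 26.0% of all such peaks. These values come from the lists that chose the sites, so no test was made.

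The shared sites with the highest ratios rose from low values. At chr9:22131466-22131804, 122.3 kb from the start of CDKN2B, which codes for an inhibitor of cyclin-dependent kinases, the fold enrichment was 1.69 and 1.72 without UV against 3.73 and 2.36 at 3 h, a log2 ratio of 0.84. An intronic site of the GC gene, which codes for vitamin D-binding protein, at chr4:71742570-71742978 had 1.78 and 1.58 without UV against 2.67 and 3.26 at 3 h. The site chr2:227852336-227852903, 18.4 kb from the start of DAW1, had 1.82 and 2.04 without UV against 3.18 and 3.61 at 3 h. Their log2 ratios were 0.82 and 0.82. At the other end, chr11:23653114-23653908, 793.0 kb from the nearest protein-coding start, had 4.48 and 4.79 without UV against 2.29 and 2.16 at 3 h, a log2 ratio of -1.06. A site in a lncRNA gene at chr18:1098016-1098692 had 3.45 and 3.65 without UV against 1.66 and 1.95 at 3 h. The site chr5:125756546-125757205, also in a lncRNA gene, had 3.90 and 3.17 without UV against 1.83 and 1.79 at 3 h. These 6 sites are the extremes of 197202 values and were picked for them.

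The ratio went with GC content. Its median was 0.06 at the 251 sites with a GC content under 30%, 0.03 at 35 to 40%, -0.03 at 45 to 50%, -0.13 at 55 to 60% and -0.17 at the 5331 sites with 60% or more. Both 3 h values lay below both values without UV at 12.4% of the sites under 30% GC content and at 56.0% of those at 60% or more. In the latter the median fold enrichment was 2.05 and 2.10 without UV against 1.86 and 1.84 at 3 h. In the former it was 1.96 and 1.97 without UV against 2.10 and 1.96 at 3 h. At 60% or more all 4 ratios of a 3 h list over a list without UV had a negative median, between -0.15 and -0.20. The ratio of the 2 replicates without UV moved less across the GC bins, with medians between -0.03 and 0.03, and that of the 3 h replicates between -0.08 and -0.02. Dividing each list by its median left the trend in place (0.07 and -0.16 in the outer bins). The input was pooled within each condition, so a GC effect in the input of a condition and one in its ChIP libraries cannot be told apart in these lists.

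**Figure D3:**
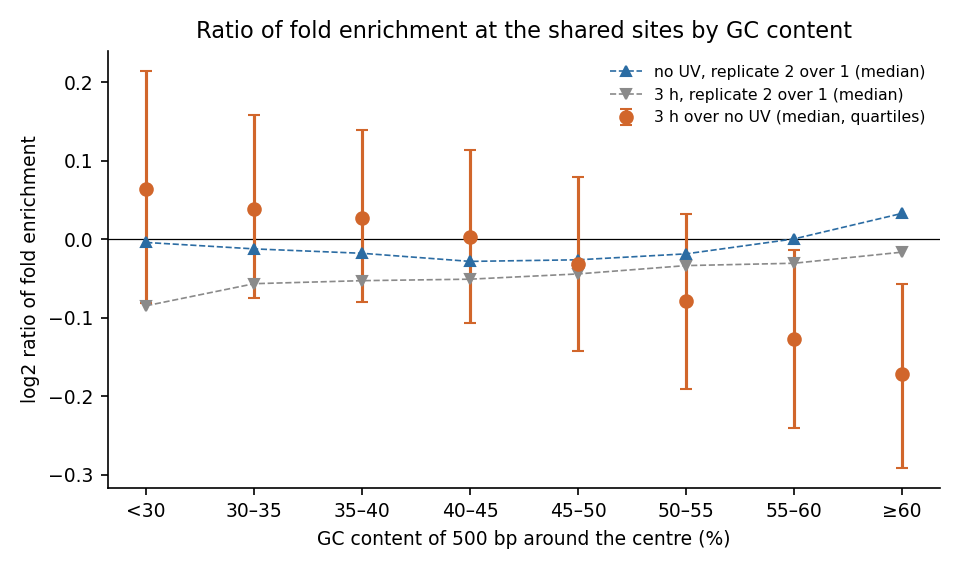
Log2 ratio of fold enrichment at the 197202 shared sites by GC content of 500 bp around the centre. Orange points are medians of the 3 h mean over the mean without UV, with bars between quartiles, and triangles are medians of replicate 2 over replicate 1 within a condition. The orange medians fall from 0.06 to -0.17 from left to right, and the ratios between replicates stay between -0.08 and 0.03.

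Shared sites were spread over all chromosomes, mostly outside protein-coding genes. The centre lay within 1 kb of a protein-coding start at 1765 sites (0.895%, 95% Wilson interval 0.854 to 0.938%, which covers counting error only), in the rest of a protein-coding gene at 74126 (37.6%) and elsewhere at 121311 (61.5%). Per Mbp of sequence this was 48.2, 57.9 and 76.1 sites. Of the peaks under the width limit 38.6%, 36.1% and 42.4% were shared in these 3 classes. At 55 to 60% GC content the shares were 37.5%, 38.4% and 52.4%, so intergenic peaks of that composition were shared more often than genic ones in this list. Within genes, 36.4% of intronic peaks were shared, but 29.4% of those on coding exons and 29.1% of those on UTR exons. Of the intergenic peaks, those in lncRNA genes were shared at 43.8%. At promoters the median fold enrichment was 2.0 and 2.02 without UV against 1.89 and 1.86 at 3 h, a median log2 ratio of -0.10, with both 3 h values lower at 679 of the 1765 sites (38.5%). Their median GC content was 52.2% in 500 bp, against 46.6% in gene bodies and 46.0% in intergenic sequence.

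Around gene starts the density of shared sites was highest just upstream. It was 74.0 per Mbp between 2.5 and 1 kb before the 19970 protein-coding starts, 38.5 in the last 0.5 kb before them, 50.3 in the first 0.5 kb and 36.4 in the next. Further upstream it lay between 56.1 and 57.0 per Mbp from 2.5 to 100 kb. Downstream it was 48.9 per Mbp at 1 to 2.5 kb and 42.5 at 2.5 to 5 kb, and rose to 51.5 at 50 to 100 kb. The other peaks were also densest between 2.5 and 1 kb upstream, at 117.6 per Mbp, and had a similar dip at the start. They reached 115.6 per Mbp at 1 to 2.5 kb downstream, so the shared fraction was lowest there (29.7%, against 38.6% at the same distance upstream). Along the bodies of the 11618 genes of 20 kb or more, the density was 60.1 per Mbp in the first 10% of the gene, 63.4 in the next 10% and 49.1 in the last.

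**Figure D4:**
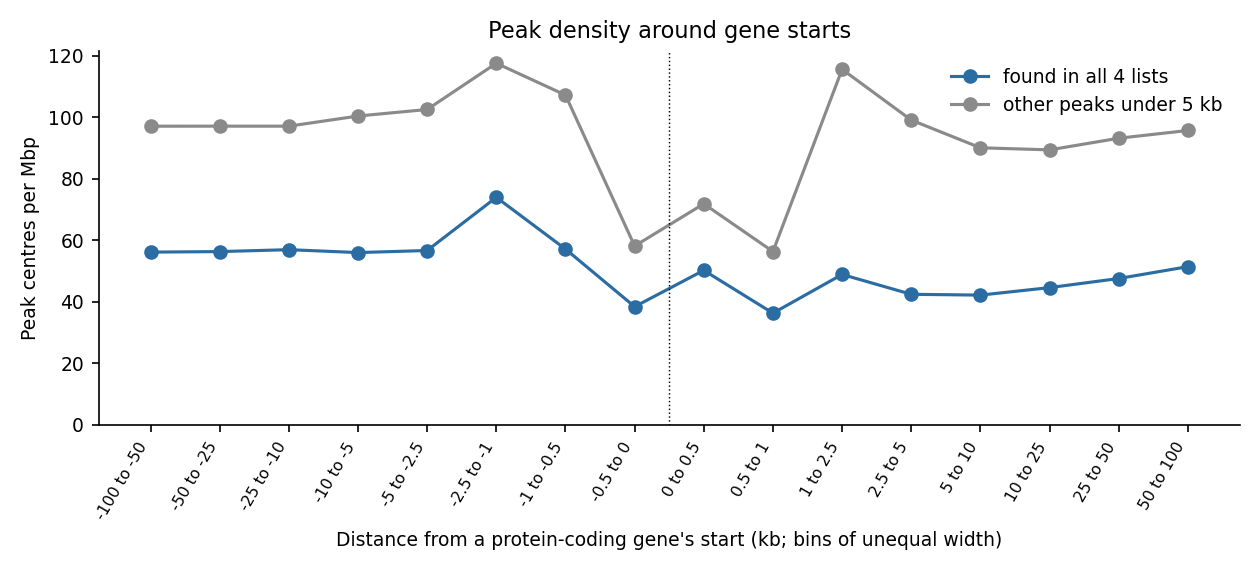
Density of peak centres per Mbp, on a linear axis, in bins of distance (kb, of unequal width) from the starts of 19970 protein-coding genes, negative upstream. Blue marks shared sites and grey the other peaks under 5000 bp. Both dip at the start, and 1 to 2.5 kb downstream the grey line is at 115.6 and the blue line at 48.9.

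Density varied several-fold between chromosomes. It was 94.8 sites per Mbp on chromosome 8 and 94.3 on chromosome 2, but 24.8 on chromosome 19 and 12.2 on chromosome X. Chromosomes 19 and X also had the lowest shared fractions of their peaks, 25.5% and 25.1%, and chromosome 8 had the highest (45.3%). Chromosome X had few peaks of any kind, 48.6 per Mbp under the width limit, against 209.0 on chromosome 8. The sites were clustered. The median gap between neighbours was 3706 bp, and 21.8% of the gaps were under 1 kb. A window of 1 Mb held a median of 60 sites (quartiles 27 and 97) and at most 268, while 6150 of 30298 windows of 100 kb (20.3%) held none.

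Among the 3661 protein-coding genes of 100 kb or more the median was 4.78 shared sites per 100 kb, and 445 genes (12.2%) had none. The gene with most was CFAP221, a gene of the ciliary axoneme, with 37 sites in 117.8 kb (31.4 per 100 kb). It was followed by SLC16A12, a monocarboxylate transporter family member (30.9), INSC, an adaptor in spindle orientation (29.7), and KLRD1, a receptor of natural killer cells (28.0). BASP1, RUNX1T1, PCED1B, the endothelial receptor kinase TEK, PRTFDC1 and the kinase TEC had between 27.9 and 26.9. In BASP1 59 of 75 peaks were shared, which covered 50.3% of the gene. The median fold enrichment of its sites was 2.04 and 2.07 without UV against 2.02 and 1.90 at 3 h. Across the 10 genes the medians lay between 1.85 and 2.13 in all lists, near the level of all shared sites, so these genes stood out in number and not in height.

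The longest genes without a shared site were DMD, which codes for dystrophin (2242 kb), and IL1RAPL1 and IL1RAPL2 (1369 and 1202 kb), all on chromosome X. DSCAM (836.2 kb), TENM1, ADARB2, ARHGAP6, TAFA1, AFF2 and DIAPH3 followed. Of the 10, 6 lay on chromosome X. They were not without peaks. DMD held 17 peaks under the width limit, TAFA1 20 and DSCAM 9, none of which was found in all lists.

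Among genes of H3K36 methylation and of nucleotide excision repair, the erasers lay near the median of all genes, and most writers, readers and repair genes had no shared site. Densities below are shared sites per 100 kb over genes of 20 kb or more, for which the median over all 11618 genes was 2.09 and 39.9% had none. Of the 7 writers, 5 had none, among them ASH1L itself (228 kb, 15 peaks, none shared), SETD2 and NSD3. SMYD2 had 3.57 and NSD1 1.19, each from 2 sites. Among 5 erasers the demethylases KDM4B, KDM2B and KDM4C had 4.88, 3.29 and 1.98, KDM2A had 0.72 and KDM4A had none. Of the 10 readers, 6 had none, including ZMYND11, MTF2 and DNMT3B. MSH6, the gene of the mismatch repair protein that binds H3K36me3, had 22 sites (19.2) over an annotated span of 114.5 kb. Where in this span they lay, relative to the coding part, was not measured. PHF19 had 10.2 and MORF4L1, the gene of MRG15, 7.99. Of the 29 excision repair genes, 22 had none (75.9%), the longest being CUL4B, ERCC6 and ERCC8. The repair genes were shorter (median 42.6 kb) than all genes of 20 kb or more (60.3 kb), and of the latter those of 100 kb or more had no site in 12.2% of cases, so these shares are not matched for length. RPA3 had 12 sites (14.6), GTF2H5 2 (6.45) and ERCC1 4 (5.59). Gene spans are those of the annotation and can overlap neighbours.

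Of 27 mesenchymal and osteogenic genes, the lineage of the line, 19 were of 20 kb or more. Of these 19, 13 were above the median of all genes of 20 kb or more, and their own median was 5.04. These genes were longer (median 87.5 kb) than all such genes. RUNX2, the master regulator of bone formation, held 79 shared sites in 336.2 kb (23.5), which were 72.5% of its peaks. Their median fold enrichment was 2.05 and 2.07 without UV against 2.04 and 1.94 at 3 h. ZEB2, a repressor of epithelial genes, held 39 (24.9) and COL1A2, a chain of type I collagen, 9 (24.8). FN1, COL3A1 and POSTN held none. Of the 8 listed genes under 20 kb, 4 held a shared site. COL1A1, the other chain of type I collagen, is among these 8 and held none. Of 20 neuronal genes, foreign to this lineage, 18 were above the same median, and their own median was 6.18. GRIN2B had 93 sites (17.1), DLGAP1 110 (11.5) and GRIN2A 45 (10.5), while CNTNAP2, DCC and GRIA2 had 0.52, 1.67 and 2.19. All 20 neuronal genes were longer than 100 kb, and 10 of them lay above the median of genes of that length, as did 4 of the 7 mesenchymal genes that long. Among genes of 100 kb or more, both lists therefore split about evenly around the median. The mesenchymal genes shorter than 100 kb were not compared with genes of like length. The neuronal genes had a median length of 566 kb, so this bound does not match their length either. Expression was not measured in these files.

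The CTD lists come from another antibody and other cells, and took no part in choosing the sites. The comparison asks whether H3K36me2 sites and ASH1L CTD peaks fall in the same places. In the 3 lists without UV 22.7%, 17% and 15.8% of the shared sites had their centre under a CTD peak, and in the 3 lists at 3 h 17.4%, 17.8% and 20.9%. Replicate 1 without UV and replicate 3 at 3 h stood above the rest, and the conditions overlapped. The mean was 18.6% ± 2.64 (SD, n = 6 lists). Of the sequence, 10.3% ± 0.786 lay under a CTD peak, and of the other H3K36me2 peaks under the width limit 15.9% ± 1.75 had their centre there. The sequence counted includes stretches whose reads were filtered out, where neither kind of peak could be called. Peaks of replicate 1 without UV found in no other H3K36me2 list also lay above it, at 13.8%. An excess over the sequence is thus not particular to shared sites. The shared sites exceeded the sequence by 8.32 percentage points and the other peaks by 2.71 ± 0.902 (SD of the within-list differences), in 6 of 6 lists each. Two-sided exact permutation tests of the signs over the 6 lists gave p = 0.03125 for each, the smallest that 6 lists allow, and 0.0417 after Benjamini-Hochberg adjustment over 4 comparisons. These tests treat the 6 lists as independent. The lists at 3 h were called against the same pooled control, all differences use the same shared sites, and deviations of some lists correlated, so independence is not given. Averaged over bins of GC content, each bin counting equally, the excess over the other peaks was 1.40 points, again in 6 of 6 lists. It was not uniform over the bins. At 60% or more shared sites had 37.4% against 37.8% in replicate 1 without UV and 37.4% against 38.6% in replicate 3 at 3 h. In the remaining lists shared sites were higher in that bin. At 55 to 60% they were lower by a little in replicates 1 and 3 at 3 h (18.79% against 18.83%, and 33.73% against 33.76%). Under 30% they were lower in replicate 1 without UV and in replicate 1 at 3 h. In the bins from 30 to 55% they were higher in all 6 lists. Over all sites the excess was 0.146 points when a CTD peak needed a -log10 p of at least 2. Only 1554 to 3262 of the shared sites had such a peak in a list. The excess was 16 points when any overlap of the whole region counted, in which the wider shared sites offer more bases.

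The shared sites were also compared with sites of one condition only. Lost sites were peaks under the width limit of replicate 1 without UV that overlapped replicate 2 without UV and no peak at 3 h (46122), and gained sites were peaks of replicate 1 at 3 h that overlapped replicate 2 at 3 h and no peak without UV (41537). Shared sites exceeded gained sites, at 14.5% ± 0.332 (n = 6 lists), by 4.11 points in 6 of 6 lists (exact permutation p = 0.03125, adjusted 0.0417). With only CTD peaks of a -log10 p of 2 or more this excess was 0.203 points, in 5 of 6 lists (adjusted p = 0.0833 by the same exact test). From lost sites, at 18.5% ± 3.71, they differed by 0.145 points (SD 1.15, range -1.33 to 1.19), higher in 4 of 6 lists (exact permutation p = 0.84375). Lost sites had a higher GC content in 500 bp (47.6%) and gained sites a lower one (42.6%) than the shared sites (46.2%).

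The CTD share of the shared sites was higher at higher GC content in all 6 lists up to 50%, and above that the lists parted. At 30 to 35% it lay between 4.39% and 11.0% in the 6 lists, and at 45 to 50% between 16.4% and 24%. At a GC content of 40 to 45% it was 16.5% in replicate 1 without UV and 15.5% in replicate 3 at 3 h, and at 60% or more 37.4% in both. In the other 4 lists it lay between 15.6% and 17.5% in the former bin and between 17% and 20% in the latter. Without these 2 lists the excess over the other peaks was 2.17 points in 4 of 4 lists (exact permutation p = 0.125, the smallest that 4 lists allow). Of the shared sites, 33.2% were under no CTD peak in any list and 51 sites were under one in all 6, against 40.7% and 28 of the other peaks. CTD peaks at shared sites were not higher than others. Their median fold enrichment lay between 1.72 and 1.82 in the 6 lists, and that of CTD peaks at the other H3K36me2 peaks also between 1.72 and 1.82.

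No change of the CTD share of the shared sites after UV was detectable with 3 lists per condition. Divided by the share of sequence that a list covers, it was 1.98, 1.71 and 1.71 without UV, against 1.68, 1.80 and 1.93 at 3 h. The values of the conditions overlapped, with means on the log2 scale of 0.85 ± 0.12 and 0.85 ± 0.10 (SD, n = 3 each). The difference was 0.0033 (two-sided exact permutation p = 1, where 3 lists against 3 cannot go below 0.1). The lists without UV were called against their own empty-vector library and those at 3 h against the pooled ones, so this step and UV cannot be told apart. Every CTD list holds the same number of peaks, and the share was divided by the sequence covered. A general rise of CTD on chromatin after UV would therefore not show in this measure, and it was not tested. The paper reports, from its CTD signal, increased recruitment after UV at all chromatin regions. Shared sites with both 3 h values of H3K36me2 lower were under a CTD peak in 15.6% to 27.7% of cases in the 6 lists, and those with both higher in 16.1% to 18.7%.

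**Figure D5:**
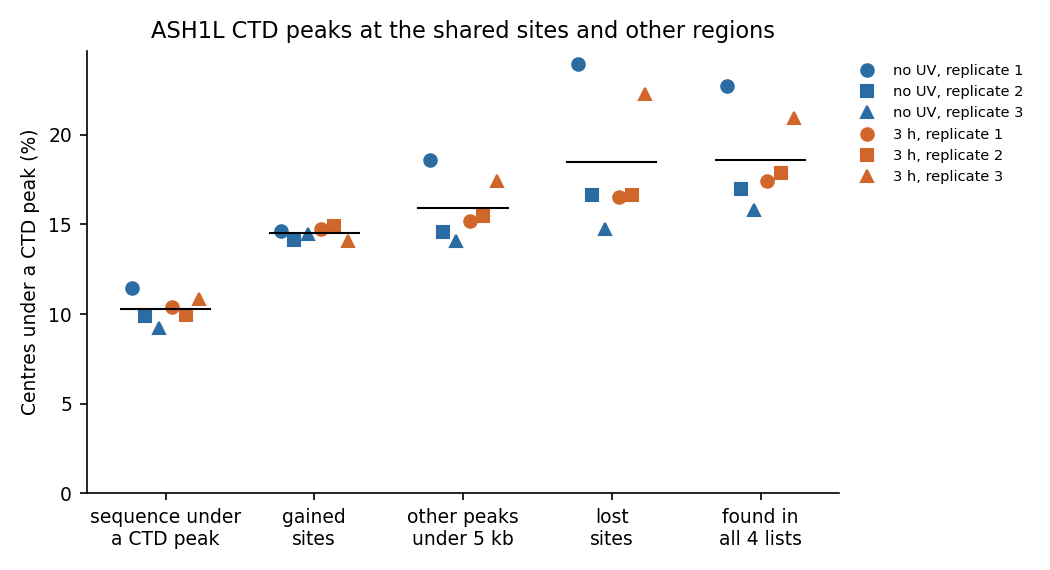
Share of region centres under an ASH1L CTD peak, in percent, in each of the 6 CTD lists (blue, no UV; orange, 3 h; one symbol per replicate number), with the share of sequence under a CTD peak at the left and horizontal lines at the mean. Shared sites (right) average 18.6%, above the other peaks (15.9%) and the gained sites (14.5%) in each of the 6 lists, and near the lost sites (18.5%).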

How the data were processed

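Anti-H3K36me2 ChIP-seq of wild-type cells and anti-FLAG ChIP-seq of CTD-expressing ASH1L-/- cells gave 28 samples, of which 10 have a peak list. Per the submitters' processing notes and the study's methods, reads were trimmed (Trim Galore 0.6.5), aligned to hg38 (BWA 0.7.17-r1188), filtered for mapping quality, duplicates and blacklisted regions (SAMtools 1.7, Picard, bedtools 2.29.2), and broad peaks were called per replicate (MACS2 2.2.7.1). Each deposited peak has a fold enrichment, the ratio of ChIP to control as the authors' caller gave it, averaged over the peak, and the authors' calling also gave the p-value and the q-value of the peak as -log10. Inputs were pooled within a condition, and depth is not in the lists. Samples were grouped by their labels.

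From the lists, overlaps, peak centres, base composition (hg38) and features (GENCODE release 44, 19970 protein-coding genes, promoters 1 kb either side of the start) were computed. A site was matched to the peak of largest overlap in each list. The CTD share was compared over 6 lists by two-sided exact permutation tests with Benjamini-Hochberg adjustment. The lists are labelled as biological replicates. The shared sites and the gene lists were chosen with earlier results of these data known. The regions named were the 6 strongest by the lowest of 4 fold enrichments (1 of them is not reported here), the 3 highest and 3 lowest ratios among sites whose conditions did not overlap, the 3 widest sites and the 3 narrowest peaks past the limit. The genes named were the 10 of 100 kb or more with most sites per 100 kb, the 10 longest with none, and the 3 with most and 3 with fewest of each gene list. The latter were taken among genes of 20 kb or more, and COL1A1 was added beside COL1A2. The word search, which left out sites on chromosome 8, and the statements on chromosomes were added after the data were seen. Alternatives were other overlaps, cutoffs, scalings, windows, promoter definitions and lists left out. Simulated data and bedtools were used to check the interval functions and the permutation test (6 of 6 checks equal, 300 of 300 planted sites recovered). Python 3.11.15, NumPy 2.4.6, pandas 2.3.3, SciPy 1.17.1, matplotlib 3.10.9 and bedtools 2.31.1 were used. Empty-vector and input libraries were not analysed here.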

Additional observations from a re-analysis of the deposited data

How the results depend on the processing

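The number of shared sites was 197202, and 109518 when at least 50% of the site had to be overlapped, 50283 with a -log10 p of 2 or more and 4858 with a -log10 q of 1.3 or more in every list, while it lay between 230957 and 237406 without 1 H3K36me2 list. Taken from another list it was 201401 to 206892. The median log2 ratio of fold enrichment lay between -0.068 and 0.0011 without 1 H3K36me2 list, and the positive value came without replicate 1 without UV. The share at promoters was 2.08% with 2 kb either side, 3.94% with all annotated genes, 1.81% with any overlap of the peak, and 0.826% to 0.945% without 1 list. The median GC content of shared sites minus that of other peaks was 0.018 percentage points over whole peaks, 1.40 over 500 bp, 1.34 with 50% overlap, -0.45 with a -log10 p of 2 or more, and -0.66 to 0.41 without 1 list, so its sign is not settled. The cause of these differences was not tested.

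The CTD excess over the other peaks was 2.44 to 2.92 points without 1 CTD list, that over the sequence 7.74 to 8.67 and that over gained sites 3.32 to 4.67, all positive with p = 0.0625, the smallest that 5 lists allow in the exact permutation test. In the 4 lists without replicate 1 without UV and replicate 3 at 3 h, an alternative chosen after seeing the data, these were 2.17, 7.15 and 2.44. With CTD peaks of a -log10 p of 2 or more the excess over gained sites was 0.203 and the difference from lost sites -0.015. With all CTD peaks the latter lay between -0.064 and 0.44 without 1 list. The log2 change of the CTD share from no UV to 3 h was -0.083 with these peaks, -0.0023 with any overlap of the whole peak, and -0.048 to 0.073 without 1 list. With a replicate block it was 0.0033 (exact permutation p = 1). The replicate numbers did not pair the lists. Deviations of CTD peak density in windows of 1 Mb correlated by -0.26, -0.07 and -0.58 between lists of the same number. Replicate 1 without UV and replicate 3 at 3 h correlated by 0.61, and replicate 3 without UV and replicate 2 at 3 h by 0.48. Other pairs of unlike number lay between -0.47 and 0.22. The permutation tests treat the CTD lists as independent, although the lists at 3 h share a pooled control and some lists correlated as above. The effect of this on the p-values was not tested. The difference of the 2 H3K36me2 replicates in fold enrichment over the 197202 sites correlated by 0.0002 between conditions. Of 81 alternatives in all, 34 were counted as unchanged. For the CTD results this meant the same direction and side of the threshold only, whatever the size. The excess over the other peaks was counted so at 0.146 points with CTD peaks of a -log10 p of 2 or more, against 2.71 points as reported. The depth of single peaks is unknown.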

Other observations

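Peaks found in fewer lists formed a series. Of the peaks under 5000 bp of replicate 1 without UV, 82888 overlapped none of the other 3 H3K36me2 lists, 102102 overlapped 1 and 113675 overlapped 2. Their median widths were 309, 436 and 579 bp, and 13.8% ± 1.18, 16.2% ± 2.06 and 17.2% ± 1.89 of their centres lay under a CTD peak (SD, n = 6 lists), against 18.6% ± 2.64 of the shared sites. Of the shared sites, 45961 reached a -log10 p of at least 2 in all 4 lists and had 20.2% ± 3.39 and the 4126 wider peaks found in all lists 19.8% ± 5.71. Among shared sites the CTD share was 22.8% ± 5.52 at promoters. It was 19.2% ± 2.79 in the bodies of genes and 18.2% ± 2.51 between genes. The wider peaks had a median log2 ratio of H3K36me2 fold enrichment at 3 h over no UV of -0.13, and -0.03 was measured at the shared sites.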
